A study of Sus scrofa with 6 samples.

Results

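Genes that mark lymphocytes were followed in the endometrium, the inner lining of the uterus, of Erhualian sows (Sus scrofa), a Chinese pig breed known for large litters. The genes were a list of 46 symbols for T cells, cytotoxic and natural killer (NK) cells, B cells and plasma cells. They were looked up by symbol among the 14262 genes of the deposited table. In all, 29 symbols matched 30 rows, because GZMA is carried by 2 Ensembl identifiers. By cell type, 12 of 22 T cell symbols, 9 of 12 cytotoxic and NK symbols (10 rows), 4 of 7 B cell symbols and 4 of 5 plasma cell symbols were matched. CD3G, CD7, CD8B, CD28, CTLA4, ICOS, FOXP3, ZAP70, LAT, THEMIS, KLRD1, GZMB, GZMK, MS4A1, PAX5, BLK and POU2AF1 matched no row and are not analysed here. The table held only genes at 10 or more in at least 3 libraries, so a member of low level may not have passed that filter. Only 11977 of the 14262 identifiers had a symbol, so a member may also be there without one.

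Tissue came from 6 sows on day 12 of gestation, 3 called high prolific and 3 called low prolific in the labels, with 1 library of total RNA per sow. High 1 to high 3 and low 1 to low 3 stand for the sows by the numbers of their labels. High 1 had parity 5 (litters borne) and the other high prolific sows parity 8, while low 1 and low 2 had parity 7 and low 3 parity 5. The title of the series names litter size and calcium ion concentration. Beyond these labels nothing is given on each sow's litter or on the piece of endometrium taken.

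T cells recognise peptides on other cells through an antigen receptor whose signal is passed on by the CD3 chains and CD247, with CD4 or CD8 as coreceptor. NK cells and cytotoxic T cells kill target cells by releasing perforin and granzymes. B cells carry an antibody as receptor, signal through CD79A and CD79B, and can mature into plasma cells that secrete antibody. In the lining of the uterus, as in other mucosae, lymphocytes lie in and under the epithelium, and the mother's immune cells meet conceptus tissue there around implantation. In pigs many NK cells carry CD2 and CD8A, and some helper T cells carry CD4 and CD8A together, so neither gene marks 1 cell type alone.

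All values are normalized read counts as deposited, whose depth in reads is unknown, and levels are compared between sows and not between genes. The columns summed to between 22663087 and 24270245. The mean over the 6 sows was between 30.3 and 3686 for the 30 rows, with a median of 100.5 against 687 over all genes, and 7 rows had a mean under 50. Such low values carry more counting error than those of most genes, by an amount that cannot be given without the depth. In RNA from whole tissue, fewer cells of a type and less RNA per cell cannot be told apart. Each fold change is the high minus the low prolific mean on the log2(value + 1) scale, with the moderated standard error from limma, and ± after a mean is the SD of its 3 sows.

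No lymphocyte gene passed the test between the groups. Of the 30 rows, the high prolific mean was above the low prolific one in 24 and below it in 6, with a median log2 fold change of 0.24 against -0.0024 over all genes. With limma 0 of 30 had an adjusted p under 0.05 and 0 had an unadjusted p under 0.05, against 0.0% and 7.92% of all 14262 genes. The groups did not overlap in 3 of the 30, CD6, CD2 and TNFRSF17, each higher in high prolific sows, where 7.18% of all genes lay without overlap in that direction. In the other direction it was 0 of 30, against 6.32% of all genes. The adjusted p of the 30 rows lay between 0.654 and 0.998. The median fold change was 0.43 for T cell genes (11 of 12 higher), 0.06 for cytotoxic and NK genes (6 of 10 higher), 0.31 for B cell genes (3 of 4 higher) and 0.57 for plasma cell genes (4 of 4 higher).

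**Figure D1:**
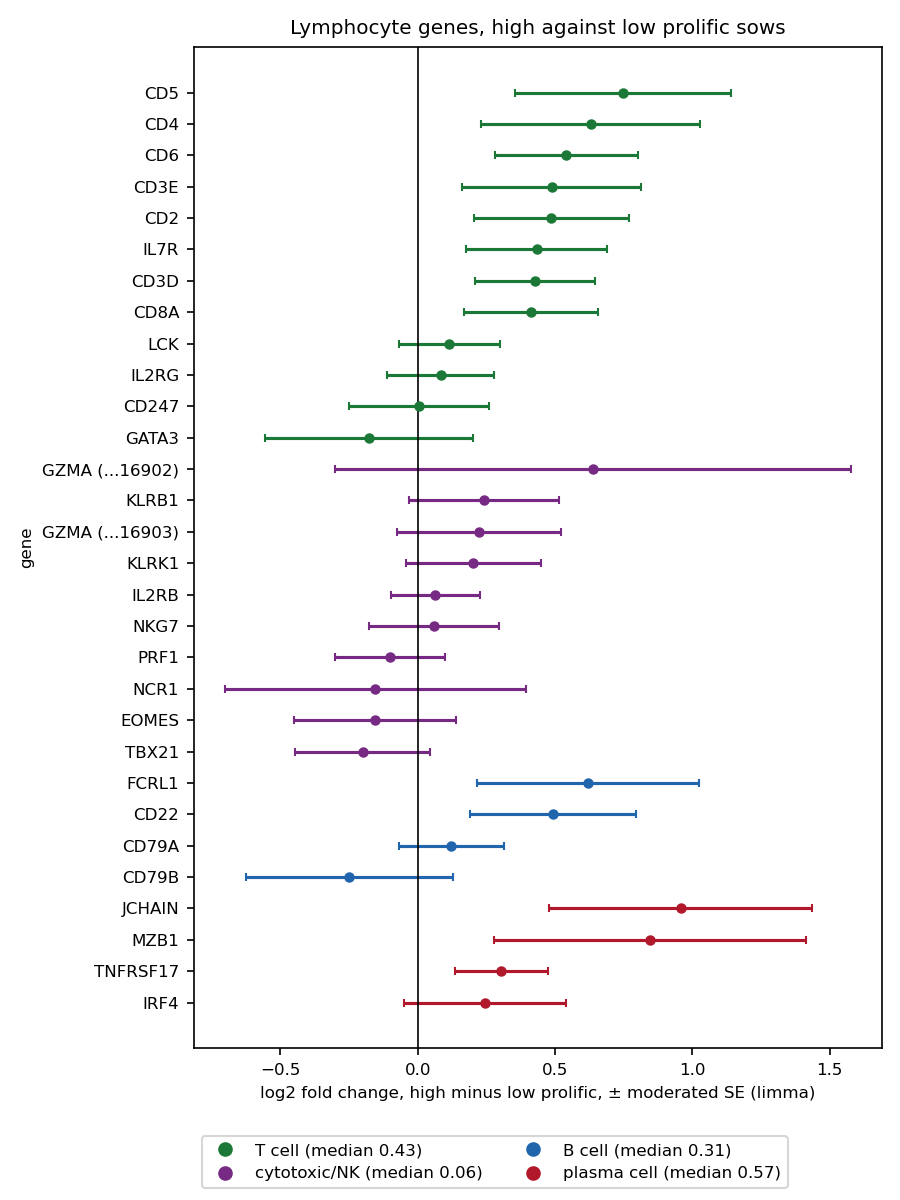
Log2 fold change of each of the 30 lymphocyte rows (horizontal axis, high minus low prolific, points with moderated standard error), grouped and coloured by cell type. The T cell genes from CD5 to CD8A sit between 0.41 and 0.75, the cytotoxic and NK rows lie between -0.20 and 0.64, and none passed the test.

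The order of the sows was uneven. High 2 was the highest of the 6 sows in 16 of the 30 rows, 53.3%, against 17.4% of all genes. That held for 8 of 12 T cell rows, 4 of 10 cytotoxic and NK rows, 3 of 4 B cell rows and 1 of 4 plasma cell rows. It was also the highest sow in 9 of 19 genes of white blood cells in general (47.4%) and in 7 of 13 other B cell genes (53.8%). In other T cell genes it was so in 7 of 22 (31.8%), as was high 3. In other cytotoxic and in other plasma cell genes it was so in 2 of 10 each (20%). Low 1 was the highest in 0 of the 30 and low 2 in 1, against 13.3% and 21.0% of all genes. Low 2 was the lowest in 10 rows and low 1 in 8, where over all 14262 genes they were the lowest in 3043 and 1855. The mean deviation from the gene means, over the 12 T cell rows, was 0.46 in high 2 and 0.18 in high 3, and it was -0.11 in high 1, -0.31 in low 1, -0.14 in low 2 and -0.07 in low 3. On this log2 measure high 1 lay within the range of the low prolific sows.

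**Figure D2:**
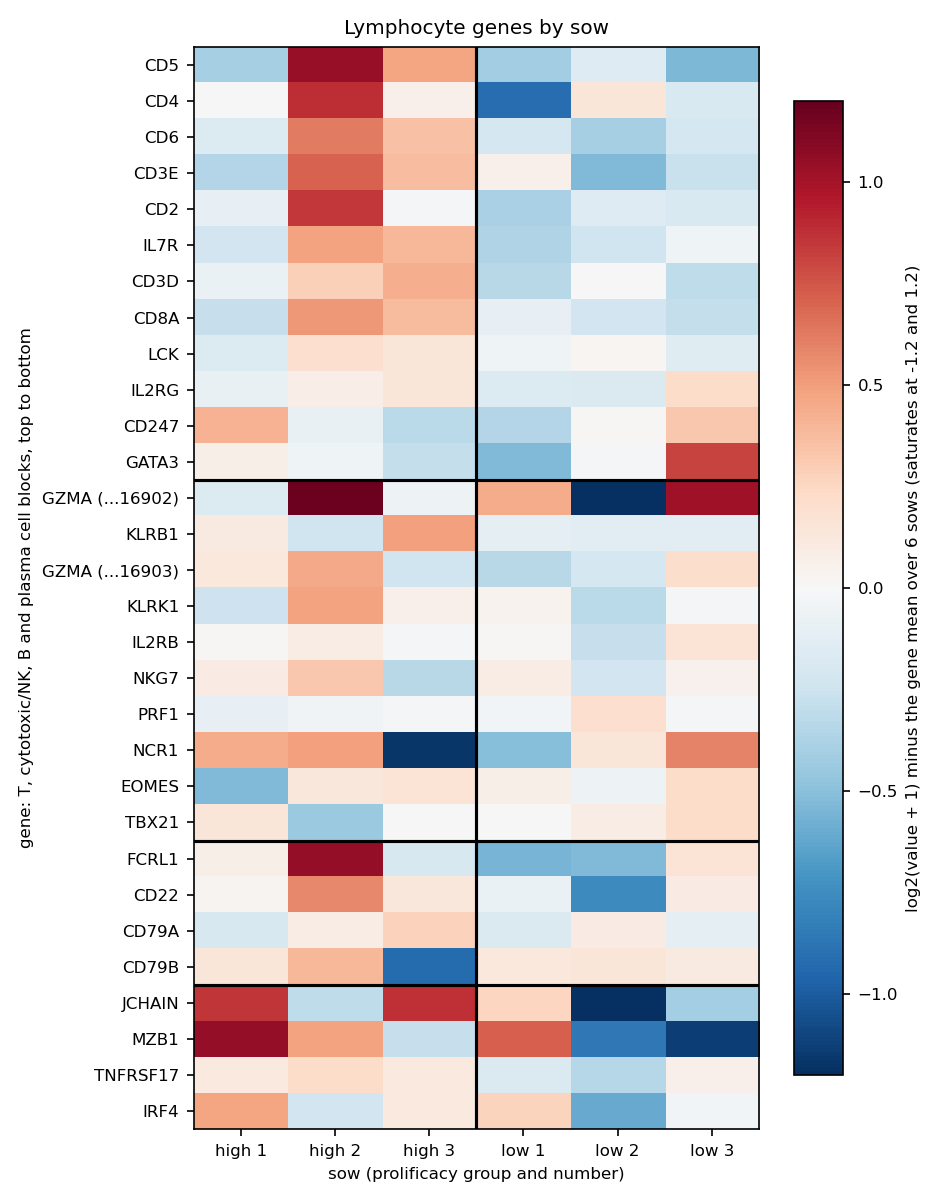
Deviation of each lymphocyte row (vertical axis) from its own mean in each sow (horizontal axis), in log2 units, from blue (low) to red (high), with high prolific sows left of the vertical line. High 2 is red in most T and B cell rows, with a mean T cell deviation of 0.46, while plasma cell rows are red in high 1 and blue in low 2.

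Among the chains of the T cell receptor complex, the values of CD3E and CD3D were largest in high 2 and high 3. CD3E was at 82.2, 173 and 137 in high 1 to high 3 and at 109.9, 72.7 and 87.6 in low 1 to low 3, with means of 131 ± 45.8 against 90.1 ± 18.7 and a log2 fold change of 0.49 ± 0.33 (adjusted p = 0.704, limma). High 1 lay below low 1 and low 3 in this gene, so the groups overlapped. CD3D was at 99.9, 129 and 144 in the high and 83.8, 105 and 85.4 in the low prolific sows (0.43 ± 0.22, adjusted p = 0.656), where low 2 alone lay above high 1. CD247, the zeta chain, which also signals in NK cells, had another order, with 605, 425 and 360.4 in the high and 354, 457 and 567 in the low prolific sows and a fold change of 0.0045 ± 0.25. Its highest sows were high 1 and low 3, both of parity 5.

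In both coreceptor genes, CD8A and CD4, high 1 lay within the range of the low prolific sows. CD8A was at 134, 234 and 212 in high 1 to high 3 and at 153, 139 and 133 in low 1 to low 3 (0.41 ± 0.24, adjusted p = 0.683), so high 2 and high 3 stood above the other 4 sows. CD4, which macrophages of some species also carry, had the values 37.5, 70.0 and 39.0 and 19.4, 41.6 and 33.0 (0.63 ± 0.40, adjusted p = 0.693). High 2 was the highest and low 1 the lowest sow in CD4, and the others lay between 33.0 and 41.6.

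Among the surface glycoproteins CD2, CD5 and CD6, the first and the last were the T cell genes without overlap of the groups. CD6, which tunes the strength of receptor signals, was at 63.5, 110.5 and 90.8 in the high and 61.6, 53.9 and 61.4 in the low prolific sows, means of 88.3 ± 23.6 against 59.0 ± 4.37, with a log2 fold change of 0.54 ± 0.26 (adjusted p = 0.654). The groups did not overlap, but high 1 lay just above low 1. CD5, an inhibitor of receptor signalling, was at 41.7, 115 and 77.2 and 41.0, 49.4 and 37.6 (0.75 ± 0.39, adjusted p = 0.657), the largest fold change of the 12, with high 1 inside the low prolific range. CD2, an adhesion molecule of T and NK cells, was at 183, 354 and 192 and 149, 176 and 173 (0.49 ± 0.28, adjusted p = 0.677). Its groups did not overlap either, and high 2 was far above the other 5 sows. CD5 and CD6 are neighbouring genes, as are CD3D and CD3E, in the RefSeq gene table.

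Of the remaining T cell genes, IL7R and LCK also had high 2 and high 3 as the highest sows. IL7R, the receptor for the survival cytokine interleukin 7, averaged 108 ± 27.2 against 78.3 ± 8.63 (0.43 ± 0.26, adjusted p = 0.681), with high 2 and high 3 above and high 1 inside the range of the low prolific sows. LCK, the kinase that starts receptor signalling, averaged 134 ± 17.7 against 123 ± 7.39 (0.12 ± 0.18) and IL2RG, the common gamma chain of cytokine receptors, 126 ± 10.5 against 119.5 ± 19.5 (0.08 ± 0.19). Their highest and lowest sows differed by 1.29-fold and 1.32-fold, less than in any other T cell row. GATA3, a transcription factor of helper T cells that epithelia also use, was the only T cell row below 0 (-0.18 ± 0.38), with 82.6 in low 3 and no more than 48.9 in any other sow.

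The 2 sows of parity 8 stood apart in many T cell genes. In 8 of the 12 T cell rows (CD2, CD3D, CD3E, CD5, CD6, CD8A, IL7R and LCK) both sows of parity 8, high 2 and high 3, lay above every low prolific sow, a pattern looked at after the values were seen. In 6 of these 8, high 1 did not lie above the low prolific sows. The same held for both sows of parity 8 in 1 of 10 cytotoxic and NK rows, 1 of 4 B cell rows, 1 of 4 plasma cell rows and 14.6% of all genes. No low prolific sow had parity 8, so for these 2 sows parity and group cannot be told apart. In the other 4 sows the mean T cell deviation was -0.31 and -0.14 at parity 7 (low 1 and low 2). It was -0.11 and -0.07 at parity 5 (high 1 and low 3). Both sows of parity 7 were low prolific, so parity and group were mixed there too, and a part of parity was not tested. With parity as a covariate the T cell median was 0.35. Leaving out high 1, already seen to lie low in these genes, had to raise the T cell median, which was then 0.65. In that fit 6 of the 30 rows (CD5, CD6, CD3E, CD3D, CD8A and IL7R) had an unadjusted p under 0.05 and none an adjusted one. All 6 belong to the 8 rows picked above, so their p is no separate support. Over all 14262 genes 1264 had such an unadjusted p. The T cell median was 0.25 without high 2.

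**Figure D3:**
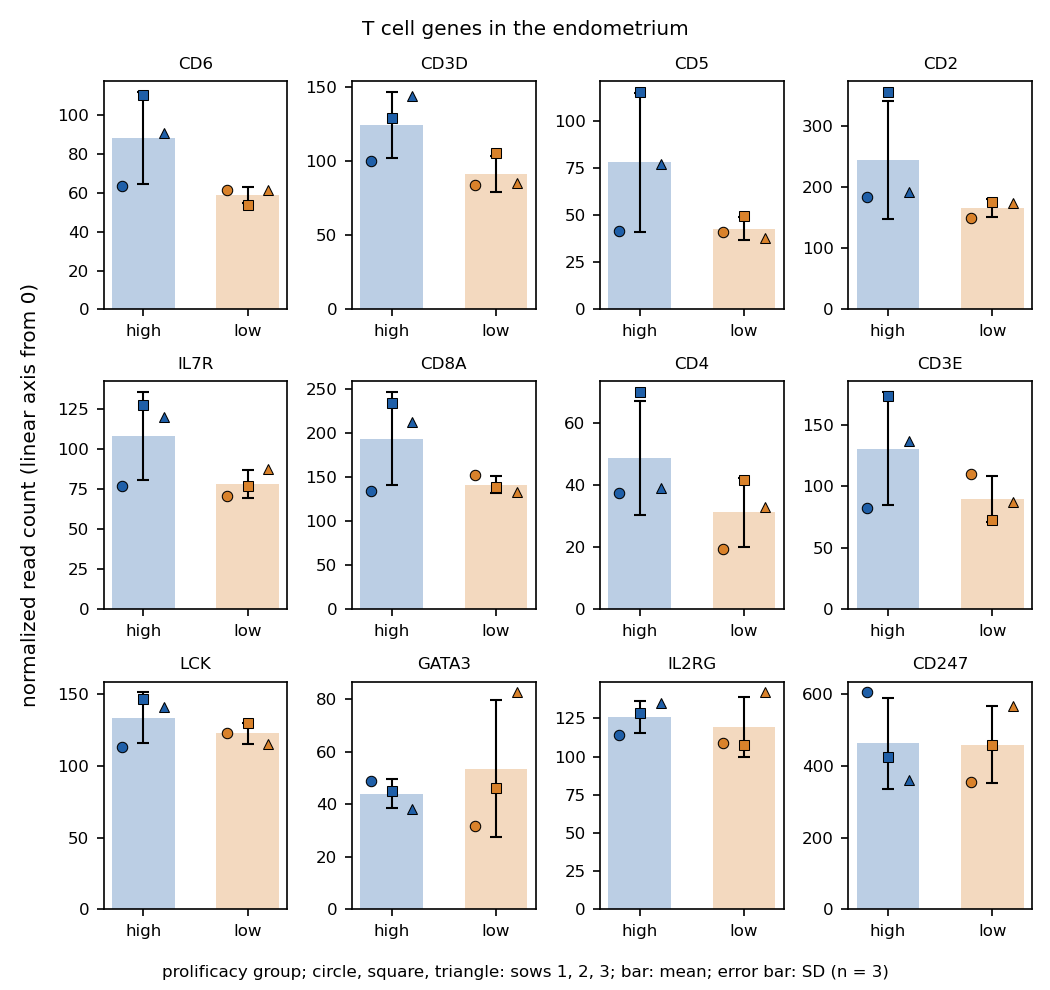
Normalized read counts (vertical axes, linear from 0) of the 12 T cell genes in high prolific (blue) and low prolific (orange) sows, with sows 1, 2 and 3 as circle, square and triangle, bars as means and error bars as SD (n = 3). The square of the high prolific group is the top point in 8 panels, such as CD2 with 354 in high 2.

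Other T cell genes, a list of 32 of which 22 were measured, lay higher in high prolific sows in 20 cases, with a median log2 fold change of 0.30. With limma 0 of 22 passed at an adjusted p, 2 higher and 0 lower had an unadjusted p under 0.05, and 5 higher and 0 lower did not overlap between the groups. Over all genes 7.92% had such an unadjusted p, and 7.18% lay higher and 6.32% lower without overlap. CD69, an early activation marker that also marks lymphocytes resident in tissue, was at 1252, 334 and 405 in the high and 221, 47.7 and 234 in the low prolific sows (2.02 ± 0.76, adjusted p = 0.623). High 1 was the highest sow by far in CD69, although it lay within or below the low prolific range in CD3E, CD5, CD8A and IL7R, and low 2 was the lowest, without which the fold change was 1.28. PTPN22, a phosphatase that limits receptor signals, averaged 68.1 ± 16.5 against 46.0 ± 2.56, and SIT1, an adaptor of the receptor complex, 40.0 ± 11.3 against 25.2 ± 3.83, both without overlap of the groups and without passing.

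Among genes of cytotoxic and NK cells the groups overlapped in all 10 rows. IL2RB, the receptor chain through which interleukin 2 and interleukin 15 act, was at 241, 253 and 236 in the high and 240.0, 197 and 267 in the low prolific sows (0.06 ± 0.16, adjusted p = 0.930). PRF1, perforin, varied least of the 30 rows, with means of 58.0 ± 1.72 against 62.4 ± 5.89 (-0.10 ± 0.20). NKG7, a granule membrane protein, averaged 114 ± 25.6 against 108 ± 12.7 (0.06 ± 0.24). In these 3 genes, as in all 10 rows, the difference between the groups was smaller than its standard error.

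The NK receptors did not share an order of sows. KLRK1 (NKG2D), which binds stress ligands, was at 102, 170.5 and 127 in the high and 125, 96.9 and 119 in the low prolific sows (0.20 ± 0.25, adjusted p = 0.831), with high 2 as the highest sow. KLRB1 was at 41.6, 32.5 and 54.7 and 35.7, 35.2 and 35.3 (0.24 ± 0.27, adjusted p = 0.813), so the low prolific sows were almost equal while the high prolific sows spread on both sides of them. NCR1 (NKp46), a receptor of NK cells, was at 43.6, 45.2 and 13.6 and 22.1, 35.2 and 48.6 (-0.15 ± 0.55). Its spread within each group was larger than the difference between them, with high 3 at the bottom.

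Granzyme A appeared under 2 identifiers. GZMA (ENSSSCG00000016902) was at 20.9, 54.2 and 22.4 in the high and 32.2, 3.58 and 48.4 in the low prolific sows (0.64 ± 0.94, adjusted p = 0.866), and the 3.58 in low 2 was the lowest value of any member in any sow. Its log2 fold change turned to -0.41 without low 2. GZMA (ENSSSCG00000016903) was at 40.6, 51.3 and 31.2 and 29.3, 31.9 and 43.1 (0.22 ± 0.30, adjusted p = 0.851), with no such drop in low 2. The RefSeq gene table also lists 2 adjacent genes named GZMA, with GZMK beside them, and how reads common to such copies were counted is not known, so both values are uncertain. TBX21 (T-bet), a transcription factor of cytotoxic and type 1 helper cells, was at 57.2, 37.8 and 51.8 and 51.7, 55.0 and 60.2 (-0.20 ± 0.25, adjusted p = 0.833), with high 2 as the lowest sow. EOMES, its relative, averaged 31.1 ± 8.01 against 34.1 ± 3.32 (-0.16 ± 0.29), and high 1 was its lowest sow at 21.9.

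**Figure D4:**
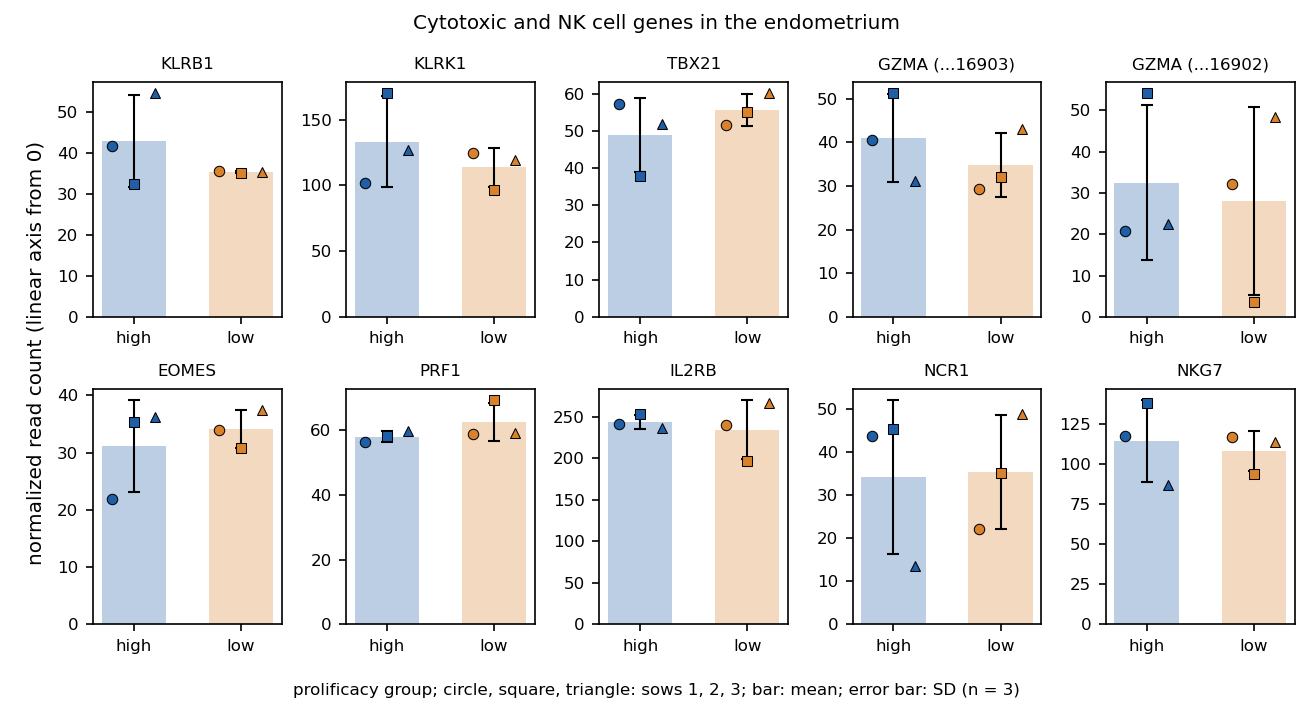
Normalized read counts (vertical axes, linear from 0) of the 10 cytotoxic and NK rows in high prolific (blue) and low prolific (orange) sows, with sows 1, 2 and 3 as circle, square and triangle, bars as means and error bars as SD (n = 3). The groups overlap in all 10 panels, and GZMA (ENSSSCG00000016902) has its low point, 3.58, in low 2.

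The median fold change of the cytotoxic and NK rows was -0.048 without low 2 and -0.0099 without high 2, against 0.062 with all sows. A list of 21 other cytotoxic genes, of which 10 were measured, was evenly divided, with 5 higher and 5 lower and a median of 0.01. With limma 0 of 10 passed, 0 had an unadjusted p under 0.05, and 1, STAT4, did not overlap, lower in high prolific sows. The shares over all genes were 7.92% at that unadjusted p and 6.32% lower without overlap. STAT4, which relays interleukin 12, was at 56.2, 76.9 and 58.6 in the high and 81.7, 343 and 88.0 in the low prolific sows (-1.09 ± 0.57), and its fold change was -0.42 without low 2, which held more than any other sow. GZMH, another granzyme, averaged 98.9 ± 30.7 against 130.2 ± 33.1 (-0.41 ± 0.30), CTSW, a protease of cytotoxic cells, 388 ± 3.79 against 355 ± 26.6 (0.13 ± 0.12) and FASLG, a death receptor ligand, 25.3 ± 2.04 against 21.5 ± 3.74 (0.24 ± 0.28).

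The 4 B cell genes had different orders of sows. CD22, an inhibitory receptor of B cells, was at 81.2, 118 and 86.9 in the high and 75.0, 46.4 and 85.1 in the low prolific sows (0.49 ± 0.30, adjusted p = 0.689). High 2 was the highest sow and low 2 the lowest, and low 3 lay above high 1. FCRL1, a receptor of mature B cells, was at 54.1, 108 and 44.9 and 34.7, 35.3 and 57.8 (0.62 ± 0.40, adjusted p = 0.700), again with high 2 on top and the others overlapping.

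The signalling chains of the B cell receptor had other orders of sows. CD79A was at 137, 167 and 190.5 in the high and 139, 168 and 145 in the low prolific sows (0.12 ± 0.19, adjusted p = 0.876). CD79B was at 56.1, 67.3 and 26.3 and 55.3, 56.1 and 54.6 (-0.25 ± 0.38, adjusted p = 0.870), where the low prolific sows were nearly equal and high 3 was the lowest. High 3 was thus the top sow for one chain and the bottom sow for its partner. The median of the 4 genes, 0.31, was 0.18 without high 2.

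A list of 18 other B cell genes, of which 13 were measured, had 7 higher and 6 lower, with a median log2 fold change of 0.14. With limma 0 of 13 passed, and 3 lower and 0 higher did not overlap, against 6.32% and 7.18% of all genes. An unadjusted p under 0.05 was found for 2 lower and 0 higher, against 7.92% of all genes in either direction. These 2 were CD40, at 183, 188 and 209 in the high and 243, 302 and 392 in the low prolific sows (-0.67 ± 0.21, adjusted p = 0.619), and BLNK, at 255, 255 and 179 and 267, 369 and 476 (-0.67 ± 0.26, adjusted p = 0.629). CD40, the receptor for T cell help, and BLNK, an adaptor of the B cell receptor, are also known from macrophages, and CD40 from epithelium and endothelium. SWAP70 averaged 975 ± 3.85 against 1132 ± 96.9 and BTK, a kinase of B and myeloid cells, 92.5 ± 11.7 against 127 ± 36.1. These 4 were named for the smallest p of the list and were all lower, while 7 of the 13 genes were higher. Over the 13 genes high 2 was the highest sow in 7 and low 3 in 6. Low 3 was the highest sow in all 4 named genes, and also in 7 of 12 macrophage and dendritic cell markers and 8 of 8 endothelial markers. Whether those cells had a part in these values was not tested.

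Plasma cell genes had the largest median log2 range over the sows of the 4 cell types, 1.63. The widest single row was GZMA (ENSSSCG00000016902) at 3.59, and the plasma cell gene TNFRSF17 had a range of only 0.57. JCHAIN, which joins IgA and IgM into the forms carried across epithelia, was at 5879, 2626 and 5961 in high 1 to high 3 and at 3886, 1323 and 2444 in low 1 to low 3. High 1 and high 3 were above the rest, while high 2 lay among the low prolific sows, below low 1. The means were 4822 ± 1902 against 2551 ± 1285 and the log2 fold change 0.96 ± 0.48 (adjusted p = 0.654), a 1.94-fold difference and the largest of the 30 rows. Within each group the sows differed by more than this in JCHAIN.

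MZB1, a chaperone for antibody assembly, was at 306, 205 and 121 in the high and 242, 80.5 and 66.4 in the low prolific sows (0.84 ± 0.57, adjusted p = 0.708), with high 1 and low 1 highest. TNFRSF17 (BCMA), the survival receptor of plasma cells, was at 190.3, 206 and 191 and 156, 139 and 183 (0.30 ± 0.17, adjusted p = 0.668). Its groups did not overlap, the gap lying between 190.3 in high 1 and 183 in low 3. IRF4, a transcription factor of plasma cell formation that activated T cells also use, averaged 179 ± 43.7 against 152 ± 44.6 (0.24 ± 0.30, adjusted p = 0.829), with high 1 and low 1 highest and low 2 lowest. Low 2 was the lowest sow in 3 of the 4 genes, and in MZB1 it was the second lowest.

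**Figure D5:**
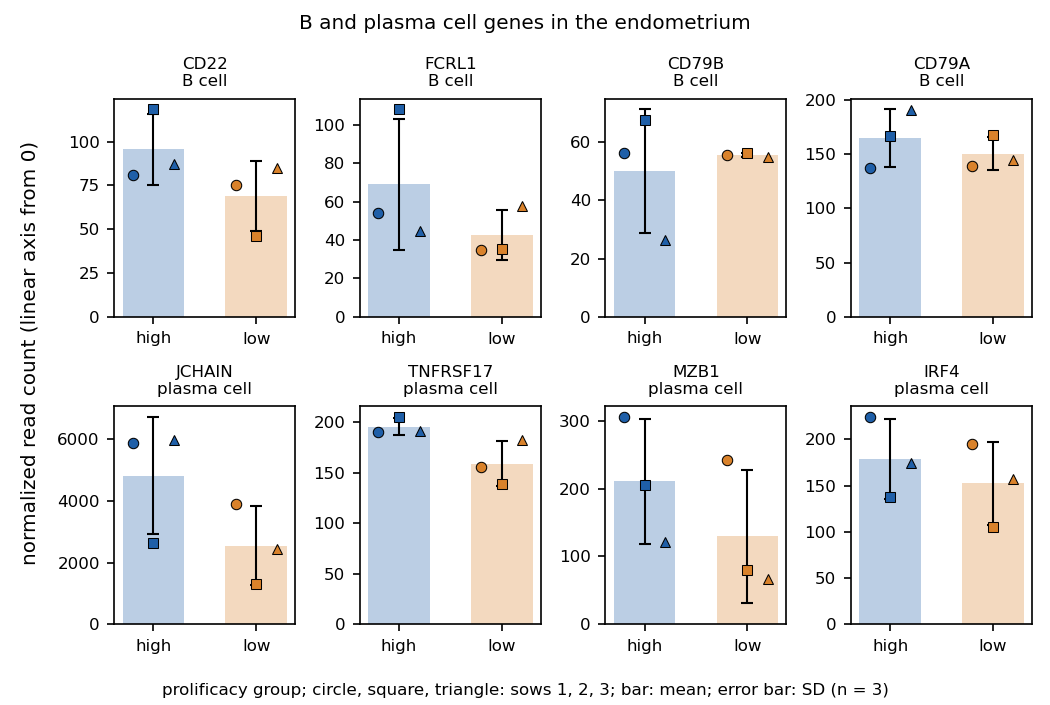
Normalized read counts (vertical axes, linear from 0) of the 4 B cell (upper row) and 4 plasma cell genes (lower row) in high prolific (blue) and low prolific (orange) sows, with sows 1, 2 and 3 as circle, square and triangle, bars as means and error bars as SD (n = 3). The square of the low prolific group, low 2, is the lowest point for JCHAIN (1323), TNFRSF17 and IRF4.

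Low 2 and low 3 had the lowest mean deviations over the 4 plasma cell genes, -0.77 and -0.38 against 0.27 in low 1. Leaving both out, with low 1 alone against the 3 high prolific sows, therefore had to lower the median, which was then 0.034 in place of 0.57. The log2 fold changes were then 0.22 for JCHAIN, 0.32 for TNFRSF17, -0.30 for MZB1 and -0.15 for IRF4. The median was 0.88 without low 1 and 0.38 without low 2. The same 2 sows had the most S100A8, a calcium-binding protein of neutrophils, at 85.2, 5414 and 10857 in low 1 to low 3 and 713, 2.22 and 113 in high 1 to high 3. S100A12, from the same marker list, also had these 2 sows on top. It was at 169, 7533 and 5283 in low 1 to low 3 and 582, 3.97 and 170 in high 1 to high 3. Other neutrophil genes had other orders. MMP8, a collagenase of neutrophil granules, was highest in low 1 (11243) and at 1706 in low 3, and CSF3R, the receptor for granulocyte colony-stimulating factor, was highest in high 1 (385) and lowest in low 2 (44.3). Whether the makeup of those tissue pieces had a part in the plasma cell values was not tested. The T cell median was 0.46 with both left out.

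A list of 12 other plasma cell genes, of which 10 were measured, had 5 higher and 5 lower and a median log2 fold change of 0.01. Over all genes 7.92% had an unadjusted p under 0.05, and 7.18% lay higher and 6.32% lower without overlap. With limma 0 of 10 passed, and 1 higher and 0 lower had an unadjusted p under 0.05 and did not overlap. That gene was CD38, a surface enzyme of plasma cells and activated lymphocytes, at 664, 755 and 367 in the high and 357, 276 and 350.3 in the low prolific sows (0.80 ± 0.29, adjusted p = 0.619). SEC11C, a signal peptidase subunit, averaged 3195 ± 587 against 2272 ± 599 (0.51 ± 0.22) and SSR4, a translocon subunit of many secretory cells, 1454 ± 159 against 1828 ± 298 (-0.32 ± 0.16). PRDM1 (Blimp-1), a transcription factor of plasma cells, averaged 504 ± 126 against 719.8 ± 207 (-0.50 ± 0.27), on the other side of 0 from JCHAIN.

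Ratios of 2 genes within a sow, which depend little on how a library was scaled, were compared for 9 pairs of rows. With 3 sows against 3 the smallest p the exact two-sided permutation test can give is 0.1, so no ratio could pass. The log2 ratio of CD3E to PTPRC (CD45), a gene of nearly all white blood cells, was -3.67, -3.01 and -2.85 in high 1 to high 3 and -3.19, -3.78 and -3.86 in low 1 to low 3. The means differed by 0.43 (exact permutation p = 0.2, adjusted p = 0.675 over the 9), with high 1 again among the low prolific sows. KLRK1 to CD3E was lower by a difference of -0.29 (exact permutation p = 0.2) and IL2RB to CD3E by -0.42 (exact permutation p = 0.3). JCHAIN to CD79A was higher by 0.84 (exact permutation p = 0.3). CD8A to CD3E (-0.08), CD4 to CD3E (0.14) and JCHAIN to CD3E (0.47), with both GZMA rows to CD3E (0.15 and -0.26), had an exact permutation p of 0.5 or more.

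Genes of white blood cells as a whole were evenly divided in direction, with high 2 and low 3 each the highest sow in 9. Of 20 such genes 19 were measured, 9 higher and 10 lower, with a median log2 fold change of 0.00. PTPRC was at 1059.7, 1400.4 and 995 in the high and 1009.8, 1010.5 and 1286 in the low prolific sows (0.06 ± 0.17, adjusted p = 0.943). Within this list, 0 passed, and LAPTM5, a lysosomal protein of lymphoid and myeloid cells, was the 1 gene with an unadjusted p under 0.05, at 1557, 1773 and 1750.4 and 1890.2, 2551 and 2625 (-0.46 ± 0.15). Such an unadjusted p was reached by 7.92% of all genes. ARHGDIB averaged 656 ± 119 against 966 ± 303 (-0.53 ± 0.26).

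Signals that draw or hold lymphocytes went both ways. Of 30 chemokines, cytokines and adhesion molecules 21 were measured, 11 higher and 10 lower, with a median log2 fold change of 0.02. With limma 0 passed, 1 higher and 2 lower had an unadjusted p under 0.05, and 2 higher and 2 lower did not overlap. The shares over all genes were 7.92% at that unadjusted p, and 7.18% higher and 6.32% lower without overlap. CCL25, a chemokine for mucosal lymphocytes, was at 139, 199 and 204 in the high and 119, 103 and 115 in the low prolific sows (0.66 ± 0.21, adjusted p = 0.619). IL33, an alarmin that acts on innate lymphoid and helper T cells, was at 730.0, 429 and 756 and 1361, 1277 and 1433 (-1.13 ± 0.23), and ICAM1, to which lymphocytes adhere through their integrins, at 378, 296 and 320.4 and 425, 471 and 597 (-0.58 ± 0.18).

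Markers of other cells differed between the sows as well. The summed level of the 12 measured macrophage and dendritic cell markers was 8198 to 10884 in the high and 8340 to 11930 in the low prolific sows, and that of the 7 neutrophil and mast cell markers 970.4 to 9488 and 12289 to 23783. The 8 endothelial markers summed to 11332 to 16523 in the high and 14159 to 25420 in the low prolific sows, all 8 lower on average in the high prolific ones. The 8 epithelial markers summed to 70377 to 73592 and 58165 to 82754, and the 10 stromal markers to 502356 to 687112 and 599380 to 810464. The measured epithelial and stromal markers of the endometrium, EPCAM, CDH1, DCN and LUM among them, were present in all 6 libraries. High 2, the sow with the most T cell transcripts, had the lowest sums of neutrophil and mast cell markers and of erythroid genes (624 against 1691 to 7972 in the other 5). Within the former list the mast cell gene MS4A2 was not low in high 2, at 297, the third highest of the 6 sows. What part these cells had in the lymphocyte values was not tested.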

How the data were processed

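Endometrium of 6 sows was measured by RNA sequencing, 3 libraries per group. The authors deposited normalized read counts, a signal with decimals. Subread 1.6, featureCounts and edgeR are named, per the submitters' processing notes, without their roles. Genome build, annotation, strand and kind of normalization are not given in the sources used here. No count model was run for that reason and no coordinates are printed. Symbols came from a table of Ensembl identifiers (11977 of 14262 matched). The comparison used limma 3.58.1 (R 4.3.3) and a pseudocount of 1 before taking log2, robust moderation with a variance trend, a two-sided test and Benjamini-Hochberg adjustment over 14262 genes at 0.05. The procedure was tested on simulated data. The members and lists, the test and the 16 alternatives were chosen with earlier results of these data known. Values in every sow were given for the 4 T, 4 cytotoxic, 3 B and 3 plasma cell members with the smallest p, for the 2 of each with the widest range, and for CD3E, CD4, CD8A, FOXP3, GZMA, IL2RB, MS4A1, CD79A and JCHAIN where matched; of other lists at most 4 genes by p were named, with PTPRC, and some of those are not reported here. EPCAM, DCN and the values in every sow of other genes were chosen after their values were seen. Of 12 planned ratios, 4 lacked a gene. Ratios were tested with scipy 1.17.1.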

Additional observations from a re-analysis of the deposited data

How the results depend on the processing

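Under 16 alternatives (a pseudocount of 10, a mean of at least 50, median scaling, quantile normalization, no variance trend, no robust moderation, library weights, parity, a replicate block, each sow left out, and both low 2 and low 3 left out) 0 of the lymphocyte rows passed at an adjusted p under 0.05, and 20 of 30 rows kept their direction wherever they were fitted (7 rows fell below the mean of at least 50, which left 23). The number with an unadjusted p under 0.05 went from 0 to 1 without the variance trend, and over all 14262 genes from 1129 to 1105. With the replicate block it was 2 (JCHAIN and MZB1), against 615 over all genes. Each block held 1 sow of each group, so fold changes and counts without overlap could not change there. With single sows left out the number ran from 0 to 6, against 466 to 1872 over all genes. Same-numbered sows deviated in opposite ways (correlations of -0.38, -0.16 and -0.36), so the numbers do not pair them. Rows without overlap, higher in high prolific sows, went from 3 to between 5 and 11 with 1 sow left out. They went to 13 with both low 2 and low 3 left out. Over all 14262 genes these counts went from 1024 to between 1275 and 2245 and to 3627. The plasma cell median was 0.034 without both low 2 and low 3. Rows without overlap, lower in high prolific sows, ran from 0 to 1 with 1 sow left out and were 0 without both. Over all 14262 genes those lower went from 902 to between 1189 and 2216 and to 3631. With 1 sow left out, the medians ran from 0.25 to 0.65 (T), -0.048 to 0.15 (cytotoxic and NK), 0.18 to 0.42 (B) and 0.38 to 0.88 (plasma). Fold changes that turned were NCR1 with library weights (0.082) and with parity (0.046), and, without both low 2 and low 3, GATA3 (0.44), NKG7 (-0.060), NCR1 (0.43), GZMA (ENSSSCG00000016902, -0.12), MZB1 (-0.30), IRF4 (-0.15), ITGB2 (0.067), CD14 (0.0065), CD86 (-0.24) and KRT8 (-0.14); the ratio of that GZMA row to CD3E was -0.14 with a pseudocount of 10. The cause was not tested. With 1 sow left out, CD247 ran from -0.20 to 0.17, CD79B from -0.51 to 0.15, EOMES from -0.28 to 0.072, GATA3 from -0.49 to 0.18, that GZMA row from -0.41 to 1.31, IL2RB from -0.056 to 0.16, NCR1 from -0.45 to 0.39, NKG7 from -0.089 to 0.24 and PTPRC from -0.092 to 0.17. Ratios ran from -0.31 to 0.52 (CD4 to CD3E), -0.17 to 0.053 (CD8A to CD3E), -0.76 to 0.83 (that GZMA row to CD3E) and -0.020 to 1.09 (JCHAIN to CD3E). Values under 50, as in 7 rows, have an unknown counting error, since the depth is not known.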
